A study of Mus musculus with 14 samples.

Results

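The neuromuscular junction genes followed here are 10 of the 55416 genes in the deposited tables: the 5 acetylcholine receptor subunits Chrna1, Chrnb1, Chrnd, Chrne and Chrng, the 4 organisers Agrn, Lrp4, Musk and Dok7, and the acetylcholinesterase gene Ache. They are the rows whose Ensembl identifier maps to these mouse symbols, a rule that names the genes and sets no threshold on their values. All 10 were found once in each library (ENSMUSG00000027107, ENSMUSG00000041189, ENSMUSG00000026251, ENSMUSG00000014609 and ENSMUSG00000026253 for the subunits in the order above, ENSMUSG00000041936, ENSMUSG00000027253, ENSMUSG00000057280 and ENSMUSG00000044716 for the organisers, and ENSMUSG00000023328 for Ache).

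Bulk RNA was sequenced from gastrocnemius, a calf muscle, and from lung of tumour-bearing (TB) and control (CON) mice. The groups were TB muscle (n = 3), CON muscle (n = 3), TB lung (n = 5) and CON lung (n = 3), all from male C57BL/6 mice (C57BL/6NCrlOri) aged 6 to 8 weeks, per the labels. In the model, cells of a line named KrasIKKaL are delivered into the trachea, so tumour-bearing lung can hold RNA of the delivered cells as well as of the host. The sources used here do not state what was given to control mice. Since no label ties the libraries to different animals, a p-value covers the spread among these libraries alone, and that spread may be technical.

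At the neuromuscular junction, agrin from the motor nerve binds LRP4 on the muscle fibre, which activates the receptor kinase MuSK. With its adaptor DOK7, MuSK gathers acetylcholine receptors under the nerve terminal, where nuclei of the fibre transcribe the receptor genes. The adult receptor is built from alpha, beta, delta and epsilon subunits, and the fetal receptor carries gamma in place of epsilon. After a muscle loses its nerve, Chrna1, Chrng and Musk are known to be transcribed along the whole fibre, which is why these genes are read as denervation markers.

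Total counts ran from 32476212 to 44169437 per muscle library and from 47947379 to 61087330 per lung library. Mitochondrial genes held 17.6% to 24.0% of counts in TB muscle and 16.2% to 34.1% in CON muscle. The tissue labels were checked on Acta1, skeletal muscle actin, which had 8427 to 13958 TPM in TB muscle, 9475 to 22864 TPM in CON muscle and at most 0.42 TPM in lung. Sftpc, the surfactant protein gene that marks alveolar type 2 cells, was listed at 0 in all muscle libraries and had 4.39 to 873 TPM in TB lung, against 31026 to 37048 TPM in CON lung. In bulk tissue, fewer cells of a type and less RNA per cell cannot be told apart.

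The upstream sequences of the receptor genes and of Musk are shown because these genes are known to share control elements at the synapse: the E-box, bound by myogenic factors of the MyoD family, and the N-box, an element for synaptic transcription. A RefSeq table on build GRCm38.p6 held windows for 8 of the 10 genes. The 250 bases before the start are given below, 5′ to 3′ on the gene's strand, for chr2:73580339-73580588 (Chrna1, minus strand), chr11:69795938-69796187 (Chrnb1, minus strand), chr11:70619195-70619444 (Chrne, minus strand), chr1:87205561-87205810 (Chrng, plus strand) and chr4:58285712-58285961 (Musk, plus strand). Capitals mark E-boxes, searched as CANNTG, and N-boxes, searched as CCGGAA, on both strands. No match of either motif overlapped one of the other.
Chrna1: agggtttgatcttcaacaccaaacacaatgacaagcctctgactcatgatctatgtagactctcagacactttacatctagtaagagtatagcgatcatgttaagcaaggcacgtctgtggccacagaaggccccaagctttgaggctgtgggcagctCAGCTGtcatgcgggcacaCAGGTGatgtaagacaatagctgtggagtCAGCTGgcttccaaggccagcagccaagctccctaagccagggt
Chrnb1: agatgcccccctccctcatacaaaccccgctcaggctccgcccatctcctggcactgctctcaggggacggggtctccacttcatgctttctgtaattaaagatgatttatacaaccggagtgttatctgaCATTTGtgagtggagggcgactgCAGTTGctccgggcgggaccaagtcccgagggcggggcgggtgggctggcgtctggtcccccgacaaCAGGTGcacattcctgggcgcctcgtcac
Chrne: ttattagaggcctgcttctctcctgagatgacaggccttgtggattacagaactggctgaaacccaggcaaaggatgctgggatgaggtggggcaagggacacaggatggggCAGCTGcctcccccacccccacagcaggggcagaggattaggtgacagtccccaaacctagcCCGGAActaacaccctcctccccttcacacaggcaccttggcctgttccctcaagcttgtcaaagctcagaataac
Chrng: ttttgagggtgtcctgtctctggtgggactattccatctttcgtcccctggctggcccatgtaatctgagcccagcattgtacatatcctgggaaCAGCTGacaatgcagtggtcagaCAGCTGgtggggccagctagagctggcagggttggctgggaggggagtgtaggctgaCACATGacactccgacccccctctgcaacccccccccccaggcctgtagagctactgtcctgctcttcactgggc
Musk: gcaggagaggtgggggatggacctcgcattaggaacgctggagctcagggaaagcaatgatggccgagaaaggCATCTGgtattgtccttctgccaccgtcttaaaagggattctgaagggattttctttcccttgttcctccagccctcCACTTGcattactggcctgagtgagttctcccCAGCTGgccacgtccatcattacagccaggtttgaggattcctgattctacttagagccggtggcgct
Chrna1, Chrnb1, Chrng and Musk held 3 E-boxes each, and Chrne held 1 E-box, 138 bases before the start, and 1 N-box, 76 bases before it. Of the 32851 windows of this length in the table, 66.2% held at least 1 E-box, 12.2% held 3 or more and 12.03% held an N-box. These matches are a description of the letters and not evidence of binding.

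Within muscle, levels were compared between genes in deposited TPM, which divides reads by transcript length. In TB muscle Chrnb1 was first, at 13.99 ± 6.38 TPM, followed by Chrne at 5.52 ± 2.02 TPM and Musk at 4.02 ± 3.41 TPM (SD, n = 3). In CON muscle Chrne was first, at 13.2 ± 1.98 TPM, followed by Chrnb1 at 7.76 ± 3.19 TPM and Ache at 3.65 ± 1.38 TPM (SD, n = 3). Neighbours in this order mostly overlapped: in TB muscle the first 7 genes, down to Agrn at 1.45 TPM, each overlapped the next, while in CON muscle Chrne stood above Chrnb1, Chrnb1 above Ache, and the genes from Ache to Chrnd each overlapped the next. Chrng was last, at 0.00667 TPM in TB muscle and 0.07 TPM in CON muscle. The place of Chrne depends on its estimated transcript length, which is described with the subunit shares.

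The muscle comparison asked how the junction genes of gastrocnemius stand in tumour-bearing mice. Lrp4 fell 2.89-fold and was the only member past the threshold, an adjusted p of 0.05 in edgeR's quasi-likelihood test. Musk and Chrnb1 had all 3 TB libraries above all 3 CON libraries, and Ache and Chrne had all 3 below, without passing. Chrng, the gene of the fetal subunit, was nearly absent in both groups. Counts-per-million (CPM) below are scaled by TMM, a method that sets libraries to a common level over most genes, and changes are log2 fold changes of TB over CON.

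Of the 9 members with enough counts to be tested, 1 was lower and 0 were higher, against 6.75% of all 14373 tested genes lower and 8.53% higher. Upper-quartile scaling, another way to set libraries level, turned the split over all genes from mostly higher (1226 higher, 970 lower) to mostly lower (760 higher, 1079 lower) and moved the median of all genes to -0.25. An unadjusted p under 0.05 was reached by 5 of the 9 members, and by 5126 of all 14373 tested genes. The median change of the 9 was -0.48, beside -0.03 over all genes tested. In 5 of the 9 the groups did not overlap, where 43.1% of all tested genes showed this.

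Agrn encodes agrin, the nerve-derived signal, which muscle also transcribes in forms with less clustering activity. It had 3.97, 5.84 and 4.40 CPM in TB muscle, against 5.33, 6.65 and 9.54 CPM in CON muscle. The groups overlapped, through TB 2 and CON 1, and the change of -0.60 (SE 0.32, adjusted p = 0.211) did not pass.

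Lrp4 encodes the agrin receptor. It had 1.22, 2.19 and 2.59 CPM in TB muscle, against 6.02, 4.08 and 7.15 CPM in CON muscle. Every TB library lay below every CON library, and the change was -1.53 (SE 0.38, 95% interval -2.39 to -0.68, adjusted p = 0.0320). The call was lost in 4 of the 6 fits that left out a library, while the change stayed between -1.75 and -1.25 over these 6. The adjusted p was 0.0960, 0.0846 and 0.126 without CON 1, 2 or 3 and 0.0544 without TB 1. Calls over all genes also dropped without a CON library, from 1226 higher and 970 lower to at most 86 higher and 157 lower. The Lrp4 call was also lost on log2(TPM + 1), at 0.0935, and in a fit of all 14 libraries, at 0.0539.

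Musk encodes the muscle-specific receptor kinase that LRP4 activates. It had 23.2, 8.41 and 10.1 CPM in TB muscle, against 7.82, 5.10 and 6.31 CPM in CON muscle. All TB libraries were above all CON libraries, with TB 1 far above the other TB libraries. The change of 1.12 (SE 0.41, 95% interval 0.20 to 2.04, adjusted p = 0.0885) did not pass in the main test, passed in DESeq2 at an adjusted p of 0.0416, and was 0.55 without TB 1.

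Dok7 encodes the cytoplasmic activator of MuSK. It had 4.40, 4.63 and 8.72 CPM in TB muscle, against 7.95, 9.29 and 7.45 CPM in CON muscle. TB 1 and TB 2 were below all CON libraries and TB 3 lay among them, with a change of -0.48 (SE 0.33, adjusted p = 0.321).

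Chrna1 encodes the alpha subunit, which binds acetylcholine. It had 23.0, 6.97 and 10.7 CPM in TB muscle, against 10.3, 7.91 and 3.31 CPM in CON muscle. TB 1 was far above the CON range, TB 3 just above it and TB 2 inside it. The change of 0.91 (SE 0.52, adjusted p = 0.230) did not pass and was 0.31 without TB 1.

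Chrnb1 encodes the beta subunit, which is shared by the fetal and adult receptors. It had 32.5, 36.7 and 24.5 CPM in TB muscle, against 21.8, 18.2 and 20.8 CPM in CON muscle. The groups did not overlap, with TB 3 the closest to CON, and the change of 0.62 (SE 0.26, 95% interval 0.04 to 1.21, adjusted p = 0.121) did not pass.

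Chrnd encodes the delta subunit. It had 2.03, 1.00 and 0.772 CPM in TB muscle, against 2.17, 1.95 and 1.03 CPM in CON muscle. The groups overlapped, and the change was -0.43 (SE 0.48, adjusted p = 0.539).

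Chrne encodes the epsilon subunit of the adult receptor, which is transcribed by the nuclei under the nerve terminal. It had 3.16, 5.97 and 6.87 CPM in TB muscle, against 8.00, 8.54 and 11.4 CPM in CON muscle. All TB libraries were below all CON libraries, and the change of -0.81 (SE 0.35, 95% interval -1.59 to -0.02, adjusted p = 0.131) did not pass. A gene on the opposite strand, 4930544D05Rik, overlaps Chrne, and had 0, 7 and 0 expected counts in TB muscle and 8, 5 and 5 in CON muscle.

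Chrng encodes the gamma subunit of the fetal receptor, and its transcription is known to return in denervated fibres. It had 0, 3 and 0 expected counts in TB muscle, against 12, 5 and 5 in CON muscle, and was too low to be tested. The TB libraries were all below the CON libraries. Over the group totals the ratio of TB to CON was 0.124, with an exact 95% interval of 0.0238 to 0.414 that covers counting error only, so a return of Chrng was not detectable in TB muscle at this depth.

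Ache encodes the esterase that clears acetylcholine from the synaptic cleft. It had 1.87, 6.97 and 3.28 CPM in TB muscle, against 10.3, 10.2 and 9.24 CPM in CON muscle. The CON libraries lay close together, and all TB libraries were below them. The change of -1.30 (SE 0.44, 95% interval -2.30 to -0.29, adjusted p = 0.0756) did not pass in the main test, passed in DESeq2 at an adjusted p of 0.0280, and was -1.94 with an adjusted p of 0.00783 without TB 2, the TB library nearest to CON.

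**Figure D1:**
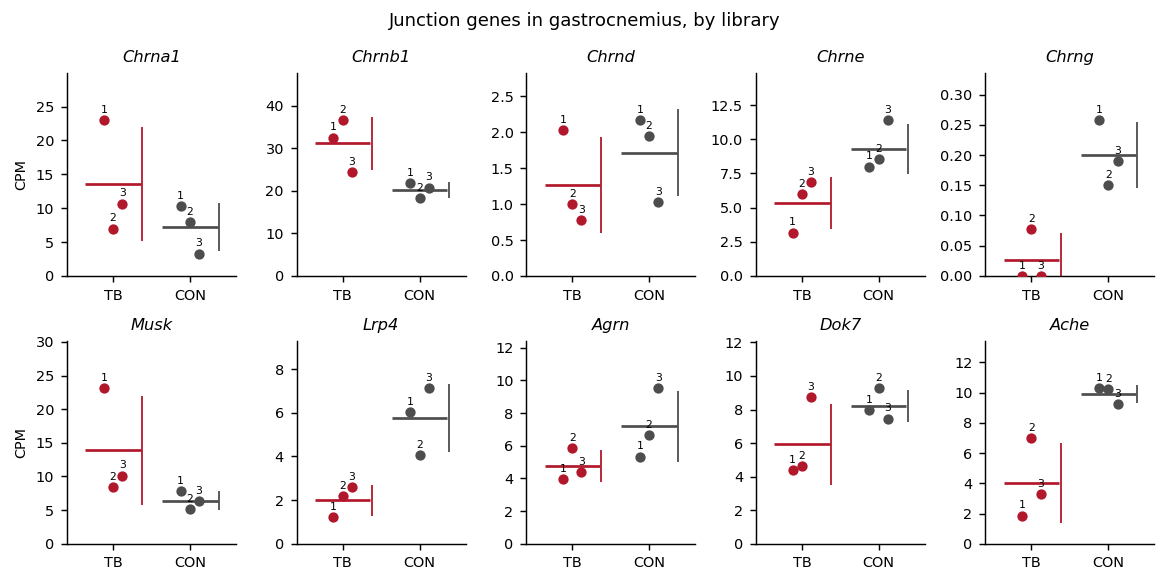
CPM of each junction gene in the 3 TB and 3 CON gastrocnemius libraries, 1 panel a gene with its own linear axis from 0; points are libraries numbered by replicate, horizontal lines are group means and vertical lines the SD. Lrp4, Ache and Chrne lie lower in every TB library than in any CON library, Musk and Chrnb1 lie higher, and Chrng does not exceed 0.258 CPM.

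Among the 9 tested members, TB 1 most often lay farthest from CON. Its value was the farthest from the CON mean, on a log scale, for 7 of the 9 tested members, TB 2 for Chrnb1 and TB 3 for Chrnd. How often TB 1 was farthest over all genes was not computed, so this may hold beyond the junction. TB 1 was also highest for Fbxo32, the ubiquitin ligase atrogin-1. Fbxo32 had 2145, 602 and 856 CPM in TB muscle, against 194, 150 and 105 CPM in CON muscle. For Trim63, the ligase MuRF1, TB 1 and TB 3 were alike, with 2425, 367 and 2501 CPM in TB muscle, against 156, 144 and 117 CPM in CON muscle. On the TPM scale the TB groups lay below CON for 3 of the 10 members (Lrp4, Chrne and Chrng), above for 0, and overlapped for 7. Chrng was not among the 9 members counted in CPM. The share of all genes without overlap was not computed in TPM, so this count shows nothing particular to the junction. In limma on log2(TPM + 1), 0 members passed and 2 had an unadjusted p under 0.05, as had 3012 of all 14373 genes.

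**Figure D2:**
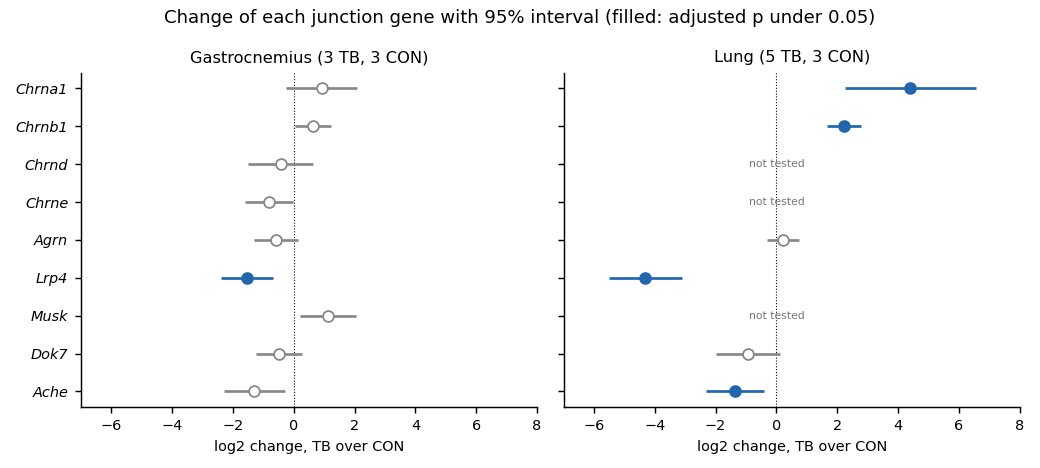
Log2 change of TB over CON for each tested junction gene in gastrocnemius (left) and lung (right), with the 95% interval of edgeR's quasi-likelihood fit; filled points passed an adjusted p of 0.05 and genes with too few counts are marked not tested. In muscle the filled point is Lrp4 at -1.53, and in lung Chrna1 at 4.39, Chrnb1 at 2.23, Lrp4 at -4.31 and Ache at -1.37 are filled.

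The mix of receptor subunit transcripts was described as the share of each in the summed TPM of the 5 subunit genes. This quantity was chosen after values were seen and is given as a description with no test. Receptor protein was not measured, so the shares do not give the make-up of the receptor. Chrne made up 11.4%, 28.5% and 42.7% in TB muscle, against 51.0%, 58.7% and 66.7% in CON muscle. Chrnb1 made up 66.4%, 64.6% and 47.0% in TB muscle, against 37.6%, 31.7% and 29.7% in CON muscle. The groups did not overlap for either subunit. Chrna1 spread widely, at 19.6%, 5.52% and 9.25% in TB muscle and 8.08%, 6.34% and 2.19% in CON muscle.

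These shares lean on the transcript length that RSEM, the authors' quantification tool, estimated for Chrne. That length was 1198, 910 and 793 bases in TB muscle, against 713, 688 and 668 bases in CON muscle, while the coding transcripts of Chrne in the GENCODE M21 annotation have 1616 and 1591 bases and its retained-intron transcripts 641 and 518. In CON muscle, most of the Chrne abundance was thus assigned to the short forms. With counts divided by the longest coding transcript of each gene in place of the estimated length, Chrne made up 8.52%, 16.3% and 23.2% in TB muscle, against 27.1%, 32.5% and 39.5% in CON muscle. The groups remained apart, the mean difference of TB minus CON was -17.0 percentage points, where deposited TPM gave -31.3, and Chrnb1 became the first subunit in both groups, at 62.0% to 75.1% in TB and 52.0% to 55.4% in CON.

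**Figure D3:**
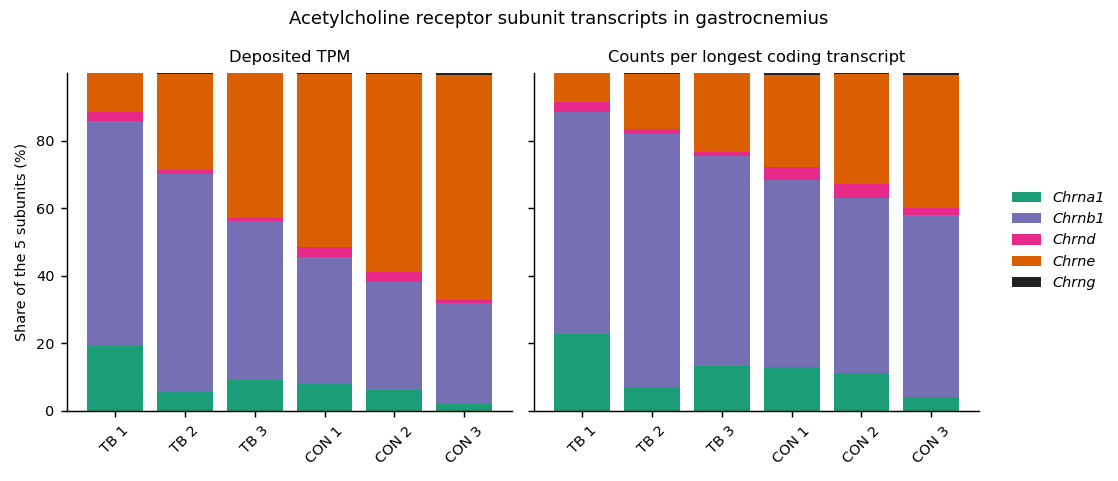
Share of each acetylcholine receptor subunit gene in the sum of the 5, per gastrocnemius library, from deposited TPM (left) and from expected counts per longest coding transcript (right). The Chrne share is lower in each TB library than in each CON library on both scales, at 11.4% to 42.7% against 51.0% to 66.7% in TPM.

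The balance of the fetal and adult subunits was tested as gamma over gamma plus epsilon in TPM. It was 0%, 0.280% and 0% in TB muscle, against 0.642%, 0.334% and 0.572% in CON muscle. The mean difference was -0.423 percentage points, and an exact two-sided permutation test gave p = 0.1, the smallest value that 3 against 3 allows. In expected counts, which are not divided by gene length, the share was 0%, 1.28% and 0% in TB muscle, against 3.13%, 1.72% and 1.64% in CON muscle, a difference of -1.74 points (exact permutation p = 0.1). Chrng was thus a minor part of the pair in all 6 libraries. With 0.1 added to each TPM, which is as much as the highest Chrng level, the difference turned to 0.771.

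Of 101 further genes in 8 lists around the junction, 81 were tested in muscle, of which 11 rose (13.6%) and 7 fell (8.64%), beside 8.53% and 6.75% of all genes. Receptor clustering genes gave 0 calls of 14 in edgeR with either scaling, and 1 had an unadjusted p under 0.05. Their median change was 0.02, and -0.23 with upper-quartile scaling. Rapsn, which encodes the rapsyn scaffold under the receptors, had the smallest p of that list, at 23.0 ± 4.10 CPM in TB muscle and 14.7 ± 1.96 CPM in CON muscle (SD, n = 3 each, change 0.64, adjusted p = 0.114).

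Among 15 genes of the basal lamina and of esterase anchoring, 3 fell and 0 rose, with a median of -0.79. Hspg2, which encodes the proteoglycan perlecan that holds the esterase in the cleft, was at 39.9 ± 13.8 CPM in TB muscle and 118 ± 19.6 CPM in CON muscle (change -1.56, adjusted p = 0.0196). Lama4 and Nid1, a laminin chain and nidogen, fell by 1.56 and 0.90 on the log2 scale (adjusted p = 0.0319 and 0.0391). Colq, the collagen tail of the esterase, was chosen after its values were seen and had 2.55 ± 1.38 CPM in TB muscle and 6.51 ± 1.46 CPM in CON muscle (change -1.35, adjusted p = 0.0541). Fibroblast markers moved the same way: 8 of 10 fell and 0 rose, with summed levels of 199 to 338 TPM in TB muscle and 359 to 404 TPM in CON muscle, and their part in the result was not tested.

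In the utrophin and dystrophin complex, 3 of 14 genes rose (2 with upper-quartile scaling) and 0 fell, with a median of 0.60. Sgca, alpha-sarcoglycan, was at 307 ± 65.7 CPM in TB muscle and 121 ± 10.9 CPM in CON muscle (change 1.34, adjusted p = 0.0194). Ank3, an ankyrin that anchors sodium channels in the folds of the junction, changed by 1.33 (adjusted p = 0.0257), and Dmd, dystrophin, by 1.05 (adjusted p = 0.0345).

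Of 12 genes of synaptic nuclei and neuregulin signalling, 10 were tested and 2 rose. Erbin, an ERBB2 partner, had 160, 35.9 and 50.9 CPM in TB muscle, against 18.5, 15.7 and 10.4 CPM in CON muscle (change 2.47, adjusted p = 0.0240). Syne1, a nesprin that anchors nuclei, had 139, 26.0 and 27.4 CPM in TB muscle, against 11.7, 10.5 and 6.92 CPM in CON muscle (change 2.72, adjusted p = 0.0288). For both genes TB 1 was the highest library.

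Among the 5 glycosylation genes of congenital myasthenia 1 fell, Gmppb, an enzyme of GDP-mannose synthesis, at 1.20 ± 0.629 CPM in TB muscle and 5.47 ± 1.62 CPM in CON muscle (change -2.17, adjusted p = 0.0171). Of 11 other nicotinic receptor subunit genes, 4 were tested and 1 rose: Chrna9, a subunit best known from inner ear hair cells, had 3.08, 5.69 and 0.965 CPM in TB muscle, against 0.344, 0.0300 and 0 CPM in CON muscle (change 4.48, adjusted p = 0.0233). Its groups did not overlap.

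Motor nerve terminal genes, transcribed by neurons whose nuclei lie in the spinal cord, were at the edge of detection in muscle. Of 13 listed, 4 were tested and 0 passed in either direction with edgeR, 0 of them at an unadjusted p under 0.05. Syp, synaptophysin, had the smallest p, with 1.52 ± 0.935 CPM in TB muscle and 2.81 ± 0.405 CPM in CON muscle (change -0.88, adjusted p = 0.188). Schwann cell markers, which report on the glia of the nerve, gave 0 calls of 11 tested in edgeR, 1 of them at an unadjusted p under 0.05, with a median of -0.90 and summed levels of 39.9 to 74.2 TPM in TB muscle and 41.2 to 150 TPM in CON muscle.

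Of the 17 genes of the denervation response, 15 were tested, of which 5 rose and 3 fell. The median was -0.28 and the mean 0.19, of opposite sign. The list was not sorted by the direction each gene takes after nerve loss, so these figures do not measure such a response. Gadd45a, a stress-induced growth arrest gene, had 96.8, 38.2 and 46.4 CPM in TB muscle, against 7.31, 6.80 and 7.37 CPM in CON muscle (change 3.08, adjusted p = 0.00636). Fbxo32 and Trim63, the ligases atrogin-1 and MuRF1, changed by 3.005 and 3.66 (adjusted p = 0.0130 and 0.0141). Fgfbp1, a carrier of fibroblast growth factors that muscle secretes at the synapse, had 0.203, 0.232 and 0 CPM in TB muscle, against 5.33, 3.63 and 3.38 CPM in CON muscle (change -4.68, adjusted p = 0.00741).

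Further genes of this list were named after their values were seen, some past the threshold and some not. They do not stand for the list, in which 5 of 15 tested genes rose and 3 fell. Myod1 had 0.33 to 4.13 TPM in TB muscle, against 4.1 to 11.3 TPM in CON muscle. Hdac9 had 0.01 to 0.18 TPM in TB muscle, against 0.25 to 0.83 TPM in CON muscle. Runx1, a transcription factor known to rise in denervated muscle, rose, with 3.09, 19.1 and 24.2 CPM in the 3 TB muscles in order of size and 1.89 to 2.85 CPM in CON muscle (change 2.81, SE 0.65, adjusted p = 0.0263). The groups did not overlap, but the lowest TB muscle lay close to CON. Myog, the myogenic factor myogenin that acts through E-boxes, had 3.31 ± 2.81 CPM in TB muscle and 2.41 ± 0.440 CPM in CON muscle (SD, n = 3 each, change 0.47, adjusted p = 0.564). Ncam1, a neural adhesion molecule, had 5.17 ± 1.999 CPM in TB muscle and 6.53 ± 2.37 CPM in CON muscle (change -0.34, adjusted p = 0.545). Myog and Ncam1 did not pass, and the 95% interval of the Ncam1 change ran from -1.20 to 0.52.

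Other cell types were followed through marker lists in the same muscle libraries. All 4 tested of 6 neutrophil markers rose (2 with upper-quartile scaling), with summed levels of 9.08 to 13.8 TPM in TB muscle and 1.61 to 2.12 TPM in CON muscle. Satellite cell markers gave 1 rise and 1 fall of 5 tested, and endothelial markers 1 fall of 10. Of 13 muscle fibre markers 2 rose and 1 fell, and with upper-quartile scaling 0 rose and 1 fell. Of 10 macrophage and monocyte markers 1 rose and 0 fell, and with that scaling 0 rose and 1 fell. Erythroid markers, at 971 to 10499 summed TPM in TB muscle and 777 to 916 in CON muscle, gave 0 calls of 5 in edgeR with all 5 at an unadjusted p under 0.05. Of cell types foreign to muscle, 1 of 5 cardiomyocyte, 1 of 3 megakaryocyte and 1 of 5 alveolar markers fell, 1 of 2 airway markers rose, and 0 of 4 tumour and proliferation markers passed in edgeR, with 0 at an unadjusted p under 0.05. The part of these cells in the junction values was not tested.

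In lung, 4 of the junction genes passed the test. Chrna1 rose 21.0-fold and Chrnb1 4.68-fold, while Lrp4 fell 19.8-fold and Ache 2.58-fold. The size of the Chrna1 rise rests on few reads, since CON lung had 11, 4 and 3 expected counts of it. Chrnd was at 0 counts in all 8 lung libraries, and Chrne, Chrng and Musk had too few counts, so these 4 could not be tested. The remaining 2, Agrn and Dok7, did not pass.

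Of the 6 tested members 2 were higher and 2 lower, against a background of 30.4% higher and 29.3% lower among 19300 genes. The median of the 6 was -0.37 and their mean 0.03, of opposite sign, beside a median of 0.07 over all genes. The groups did not overlap for 4 of the 6, against 63% of all tested genes. With a background this high, counts over so few genes show nothing particular to the junction.

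Lrp4 had 7.51, 14.2, 5.86, 8.61 and 1.59 CPM in TB lung, against 158, 145 and 148 CPM in CON lung. Even the highest TB library, TB 2, was far below the lowest CON library. The change was -4.31 (SE 0.53, 95% interval -5.51 to -3.11, adjusted p = 0.000144) and stayed between -4.64 and -4.02 in the 8 fits that left out a library. Markers of the lung's own cells fell with it: 10 of 10 alveolar epithelial markers (40.2 to 1443 summed TPM in TB lung, 41225 to 48028 in CON lung) and 10 of 10 endothelial markers (111 to 149 and 2183 to 2266). Their part in the result was not tested.

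Chrnb1 had 81.4, 130, 66.9, 117 and 119 CPM in TB lung, against 24.0, 21.6 and 20.2 CPM in CON lung. The lowest TB library, TB 3, was above all CON libraries, and the change was 2.23 (SE 0.25, 95% interval 1.66 to 2.79, adjusted p = 8.87e-05). All 8 tumour and proliferation markers rose as well, with summed levels of 7508 to 12212 TPM in TB lung and 831 to 855 TPM in CON lung. Their part in the result was not tested either.

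Chrna1 had 1.05, 1.01, 1.26, 1.06 and 6.51 CPM in TB lung, against 0.179, 0.0673 and 0.0545 CPM in CON lung. The first 4 TB libraries lay close together and TB 5 far above them, and all 5 were above CON. The change was 4.39 (SE 0.95, 95% interval 2.24 to 6.55, adjusted p = 0.00351). It did not pass on log2(TPM + 1) (0.51, adjusted p = 0.0751), a scale that understates changes of low genes, and DESeq2 gave it no adjusted p. Markers of muscle fibres, which also transcribe Chrna1, were mixed: of 10 tested in lung 2 rose and 8 fell, and all 13 together summed to 28.5 to 52.1 TPM in TB lung and 90.1 to 121 TPM in CON lung. Those that rose, named after their values were seen, were Mylpf, a fast myosin light chain (4.13 to 9.14 TPM in TB lung, 3.08 to 3.82 TPM in CON lung), and Tnni2, a fast troponin (15.1 to 36.6 TPM in TB lung, 5.20 to 6.92 TPM in CON lung). Myh2 and Myh4 were at 0 in all TB lung libraries, and Acta1 at 0.15 TPM or less. Their part in the result was not tested.

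Ache had 0.589, 0.198, 0.460, 0.725 and 0.465 CPM in TB lung, against 0.862, 1.51 and 1.42 CPM in CON lung. All TB libraries were below CON, with TB 4 close to CON 1, and the change was -1.37 (SE 0.42, 95% interval -2.33 to -0.41, adjusted p = 0.0202). The call was lost without CON 2 (adjusted p = 0.0856) or CON 3 (0.0748).

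Agrn was the most abundant member in lung, at 80.8 ± 17.6 TPM in TB lung (n = 5) and 72.9 ± 1.02 TPM in CON lung (SD, n = 3). It had 217, 302, 194, 287 and 397 CPM in TB lung, against 244, 241 and 244 CPM in CON lung. The CON libraries were nearly equal and lay inside the wide TB range, and the change of 0.20 (SE 0.23, 95% interval -0.33 to 0.73, adjusted p = 0.479) did not pass.

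Dok7 had 0.278, 1.39, 0.648, 0.600 and 0.612 CPM in TB lung, against 1.29, 1.25 and 1.54 CPM in CON lung. TB 2 reached into the CON range and the other 4 lay below it, so that the change of -0.94 (SE 0.47, adjusted p = 0.109) did not pass with all libraries and was -1.32 (adjusted p = 0.0133) without TB 2. Musk had 9 counts in TB lung and 6 in CON lung, a ratio of 0.886 with an interval of 0.281 to 3.02. Chrne had 5 and 13 counts, a ratio of 0.227 (0.0634 to 0.679), and Chrng had 4 counts in TB lung and 0 in CON lung.

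**Figure D4:**
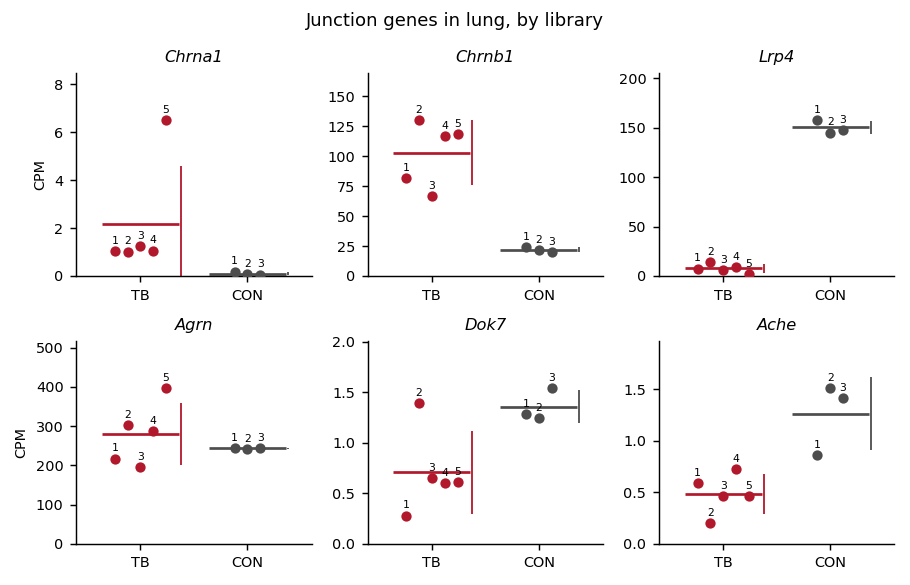
CPM of the 6 tested junction genes in the 5 TB and 3 CON lung libraries, each panel with its own linear axis from 0; points are libraries numbered by replicate, horizontal lines are means and vertical lines the SD, drawn no lower than 0. TB 5 stands apart for Chrna1 at 6.51 CPM, and Lrp4 lies at 14.2 CPM or less in TB lung, against 145 CPM or more in CON lung.

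Over the 8 junction lists, 85 genes were tested in lung, of which 14 rose (16.5%) and 38 fell (44.7%), beside 30.4% of all genes higher and 29.3% lower. The lists with the most falls had 12 of 14 (the utrophin and dystrophin complex) and 10 of 14 (the basal lamina). Sntb1, a syntrophin, fell to 0.625 ± 0.411 CPM in TB lung (n = 5), against 54.1 ± 3.52 CPM in CON lung (SD, n = 3), and Sgcd and Dtnb of the same complex changed by -3.20 and 1.84. Lama2, a laminin chain, changed by -3.92, Col4a5, a basement membrane collagen chain, by -3.65, Lama4 by -2.50 and Col13a1, a transmembrane collagen of the junction, by -5.88.

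Receptor clustering genes gave 5 rises and 2 falls of 14 in lung. Macf1, a linker of microtubules and actin, had 136.7 ± 25.1 CPM in TB lung and 1039 ± 3.95 CPM in CON lung (change -2.93), while Cttn, cortactin, Pak1 and Cdk5, a pair of kinases, changed by 2.01, 1.79 and 1.17. Etv4, an ETS factor on the synaptic nuclei and neuregulin list, had 159 ± 37.3 CPM in TB lung and 0.518 ± 0.182 CPM in CON lung (change 8.26). Its relative Etv5 changed by -3.06, and Syne2 and Syne1 by -1.58 and -2.01. That list gave 1 rise and 4 falls of 12.

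The remaining lists were small in lung. Chrna7, the homomeric receptor subunit of neurons and immune cells, had 0.00681 ± 0.0152 CPM in TB lung and 1.25 ± 0.0873 CPM in CON lung (change -6.98), while Chrna2 changed by 1.34, the only calls among 4 other nicotinic subunits tested. Alg2 and Gfpt1 of the glycosylation list changed by 0.89 and 1.34, with 0 falls of 5. Of 10 nerve terminal genes tested 1 rose, Snap25 (2.90), and 4 fell, with Syp at -3.85 and Nefm at -4.55. In the denervation list 2 of 12 rose and 5 fell, with Ncam1 at 3.26, Hdac9 at -2.38 and Trim63 at -5.01. Cardiomyocyte markers fell too, 6 of 8, with summed levels of 107 to 489 TPM in TB lung and 446 to 1442 TPM in CON lung, and their part was not tested. Among the other marker lists in lung, all 7 erythroid, 4 of 6 megakaryocyte and 4 of 10 fibroblast markers fell, with 0 rises in these 3 lists. Airway markers gave 1 rise and 4 falls of 7, macrophage markers gave 1 rise and 4 falls of 10, neutrophil markers 1 rise and 2 falls of 6, Schwann cell markers 2 rises and 2 falls of 11, and satellite cell markers 1 rise and 1 fall of 4. All lung changes given for genes of these lists passed, with adjusted p-values of 0.0277 or less.

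Whether the tumour effect differed between the tissues was tested as the log2 change in muscle minus that in lung, in a fit of all 14 libraries. The fit treated muscle and lung libraries as independent, though they may share mice. Of the 9 members that passed this fit's filter, 3 passed the test, against 35.6% of 19834 genes. For Chrnd, at 0 in all lung libraries, no difference could be estimated. Lrp4 fell in both tissues and less in muscle (difference 2.78, SE 0.70, adjusted p = 0.00681). Chrnb1 had a smaller change in muscle (difference -1.59, SE 0.35, adjusted p = 0.00296), as did Chrna1 (difference -3.47, SE 1.09, adjusted p = 0.0229). The call for Chrnb1 was lost on both TPM scales, and that for Chrna1 was lost in 4 of the 14 fits that left out a library (without CON muscle 1, TB muscle 3, or CON lung 2 or 3) and turned to 0.07 on log2(TPM + 1). For Ache the difference was 0.10, with a 95% interval from -1.20 to 1.40.

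Between the tissues of control mice, all 9 tested members passed: 7 were higher in muscle and 2 lower, against 36.5% of 18053 genes higher and 44.9% lower. Tissue and any processing batch of the tissues cannot be told apart here. Muscle and lung libraries were again treated as independent. The median of the 9 was 4.76, beside -0.25 over all genes. In log2 change of CON muscle over CON lung, Musk was at 9.20 (SE 0.29), Chrne at 8.68 (SE 0.26) and Chrna1 at 7.89 (SE 0.58). Ache and Dok7 followed at 4.76 (SE 0.22) and 4.38 (SE 0.16). The adjusted p-values of these 5 were 5.01e-06 or less.

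Chrnd had 193 counts over CON muscle and 0 over CON lung, at least 101-fold higher in muscle when the lung group is set to the 3 counts that a count of 0 allows. Chrng had 22 counts and 0, at least 11.5-fold higher on the same floor, and was not tested. The receptor subunits and Musk were thus near absent from lung, with the exception of Chrnb1.

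Agrn and Lrp4, organisers that many epithelia also transcribe, were lower in muscle, with changes of -3.31 (SE 0.20) and -2.93 (SE 0.19). In TPM, Lrp4 averaged 0.620 ± 0.203 in CON muscle and 28.5 ± 2.02 in CON lung (SD, n = 3 each). For Chrnb1 the direction depended on the scale: it was higher in muscle in scaled counts (1.67, SE 0.11) and lower on log2(TPM + 1) (-1.20), where the median of all genes was -1.66. Chrnb1 lay above that median on either scale.

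RSEM reports for each gene a mean transcript length weighted by the abundance of its transcripts, which moves when the mix of transcripts moves. It was compared for members with at least 10 counts in every library of a tissue and more than 1 transcript, in 13 exact two-sided permutation tests. In 3 of them the groups did not overlap, and 0 passed after adjustment over the 13 (smallest adjusted p = 0.232). The share of all genes without overlap in length was not computed, so this count shows nothing particular to the junction. In muscle no test of 3 against 3 can go below 0.1.

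Agrn in lung had 3339, 3831, 4151, 3898 and 3937 bases in TB, against 5109, 4964 and 4917 bases in CON. The mean difference was -1165 bases (exact permutation p = 0.0179, unadjusted, the smallest that 5 against 3 allows). The coding transcripts of Agrn have 7262, 7193, 6891 and 4831 bases in GENCODE M21, its retained-intron transcripts 8612 and 2071, and a processed transcript 762. Thus Agrn, whose level did not pass the test in lung, had a lower estimated length in every TB library.

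Musk in muscle had 3173, 3243 and 3151 bases in TB, against 2950, 2955 and 2874 bases in CON (difference 263 bases, exact permutation p = 0.1), and its 7 coding transcripts span 3323 to 3422 bases beside a processed transcript of 903. The difference for Chrne was 277 bases (exact permutation p = 0.1). For the other 10 tests the groups overlapped.

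**Figure D5:**
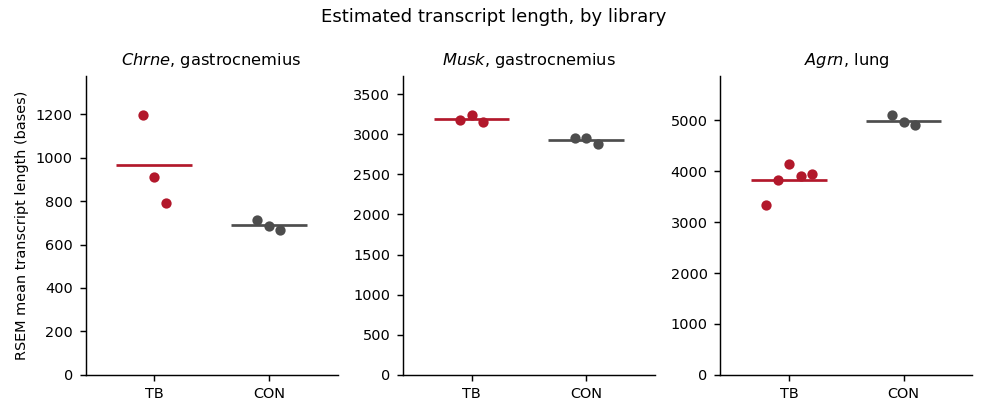
RSEM mean transcript length, in bases, of Chrne and Musk in gastrocnemius and of Agrn in lung; points are libraries, horizontal lines group means, and axes start at 0. TB libraries have longer estimates for Chrne and Musk in muscle and shorter estimates for Agrn in lung, at 3339 to 4151 bases against 4917 to 5109 bases.

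For each member tested in muscle, the genes of the most similar pattern over the 6 muscle libraries were listed among 7742 genes with at least 5 CPM, by Pearson's r of log2 CPM. Chrna1 was closest to Otud1, a deubiquitinase, and Plin5, a lipid droplet protein (r = 0.997 and 0.996 over 6 libraries that share their scaling). Chrne was closest to Nbdy and Tcf7l2, Lrp4 to Msrb2 and Sdccag8, Musk to Aebp2 and Ptpn14, and Ache to Kbtbd3 and Alkbh7. Agrn was closest to Lgals9 and Map4k2, Dok7 to Grn and Dkk2, Chrnb1 to Sqor and Acsl3, and Chrnd to Slc16a1 and Lpgat1. All 18 values of r were at least 0.975. The highest r among 7742 genes over 6 libraries is high by selection, so its size shows nothing particular to a member. No member was among the nearest of another, but Lrp4, Chrnd and Chrng, under 5 CPM on average, were outside the genes compared and could not be named.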

How the data were processed

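RNA was sequenced from 6 gastrocnemius and 8 lung samples with the MGIEasy RNA Directional kit and reads of 100 bases, per the labels. The authors used Trim Galore, STAR 2.7.9a and RSEM 1.3.3, per the submitters' processing notes. Genome build, strand setting and filters were not given in the sources used here. The authors deposited a table per library with RSEM expected counts, which estimate how reads are divided among genes and transcripts, TPM, and a mean transcript length in bases, per the file headers. Symbols came from a table of mouse gene identifiers, which named 52083 of the 55416, and annotated transcript lengths from GENCODE M21. All 140 expected counts of the members were whole as deposited, and counts of other genes were rounded.

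Tests were run per tissue with glmQLFit and the two-sided glmQLFTest of edgeR 4.0.16 in R 4.3.3, after filterByExpr and TMM scaling. Benjamini-Hochberg adjustment covered all tested genes, with a threshold of 0.05. A standard error (SE) is the change divided by the square root of F. The tissue comparison used the 6 control libraries, and the interaction all 14. DESeq2 1.42.0 and limma 3.58.1 on log2(TPM + 1) or log2(TPM + 0.1) served as alternatives, as did RLE and upper-quartile scaling, no filter, leaving out each library and a replicate block. Shares and lengths were compared by exact permutation. The fits were also run on simulated counts that gave every gene the same spread setting. That run does not show how the fits perform at the spread of these libraries. Count ratios have exact 95% intervals, and a count of 0 allows up to 3 counts. Both cover counting error only.

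The 10 members and the 8 junction and 13 marker lists were chosen with earlier results of these data known. From each junction list, up to 4 genes past the threshold with the smallest adjusted p were named, or else the gene with the smallest p. Some genes this rule takes in lung are not reported here. Genes of similar pattern were the 2 with the highest r, leaving out clones and predicted genes. RSEM divides reads between overlapping genes by its strand setting, so Chrne, which overlaps a gene on the opposite strand, is uncertain to the extent of that gene's reads.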

Additional observations from a re-analysis of the deposited data

Results flagged for a closer look

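Chrna1 in TB lung 5 stood at 6.51 CPM, far from the other 4 TB lung libraries at 1.01 to 1.26 CPM. It was the 1 value set apart among 11 sets of 5 TB lung values examined (CPM or estimated transcript length), and chance sets apart about 1 in 20. The change of Chrna1 in lung was 3.44 without it, against 4.39 with it, and passed in each fit that left out a library.

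The tumour effect in muscle minus that in lung was -3.47 for Chrna1, 2.78 for Lrp4 and -1.59 for Chrnb1 on the log2 scale, each past the threshold in the test of the difference itself (adjusted p = 0.0229, 0.00681 and 0.00296). For Lrp4 the test passed in all 14 fits that left out a library and in the 6 other settings tried.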

How the results depend on the processing

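Of the 9 members tested in muscle, 1 passed in the main test, RLE and upper-quartile scaling, 3 (Lrp4, Ache and Musk) in DESeq2 and with no filter, and 0 on log2(TPM + 1), on log2(TPM + 0.1) and with all 14 libraries in 1 fit. Leaving out a library gave 0 to 3. Over all genes the muscle count was 2196 in the main test, 3657 in DESeq2, 415 on log2(TPM + 1), 676 on log2(TPM + 0.1), 4031 with no filter, 3459 with all libraries in 1 fit, and 106 to 4513 without a library. Every muscle member kept its direction in all of these. The cause of these shifts was not tested.

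A fit with the replicate number as a replicate block called 3 muscle members (Lrp4, Ache and Musk) and 3303 genes. In lung this fit kept only the numbers found in both groups, so TB 4 and TB 5 were left out. There it lost Ache (adjusted p = 0.0695) and gave Agrn a change of -0.014, opposite to the main 0.20. Whether the block or the libraries left out moved these values was not tested. The numbers were not taken to pair the samples, since no label says so and not every library correlated best with its own number. Deviations of same-numbered libraries correlated at 0.36, -0.05 and 0.37 in muscle and at -0.00083 to 0.058 in lung. In muscle, numbers 1 and 3 were best matches from both groups. The mitochondrial share also rose with the number, at 17.6%, 19.0% and 24.0% in TB muscle and 16.2%, 26.7% and 34.1% in CON muscle. A processing order shared by the groups was not tested.

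On log2(TPM + 0.1), 1 member passed the interaction, against 3 in the main test, and Chrna1 turned to 0.069 on log2(TPM + 1). Chrnb1 in CON muscle over CON lung turned to -1.20 and -1.30 on the TPM scales with 1 and 0.1 added, where the medians of all genes were -1.66 and -2.59. With 0.1 added to TPM, the difference in gamma share turned to 0.771 percentage points. In lung, Dok7 passed on both TPM scales, with all libraries in 1 fit and without TB 2. Depth limits Chrng in muscle and Chrnd, Chrne, Chrng and Musk in lung.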
